A study of Mus musculus with 10 samples.

Results

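The genes examined here encode the histone variant H2A.Z, the remodelling enzymes that place or remove it, and the chaperones and subunits that work with them, in dorsal root ganglia (DRG) at E18.5. They were chosen because *H2az2*, an H2A.Z gene, was already known to be lower in *WD1* cKO embryos, and the question was whether the machinery that handles H2A.Z followed. The set holds 10 of the 55414 genes listed in each library: *H2az2*, *H2az1* (older symbol *H2afz*), *Srcap*, *Ep400*, *Ino80*, *Vps72*, *Znhit1*, *Anp32e*, *Ruvbl1* and *Ruvbl2*. All 10 passed the filter on low counts, at least 10 counts in at least 5 libraries, which left 17490 genes. The values of *H2az2* in this contrast picked the set, so its difference is given as a description without a test, and the other 9 genes were tested.

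Bulk RNA-sequencing covered the DRG of 10 embryos, 5 control and 5 *WD1* cKO. *WD1* cKO stands for Wnt1Cre/+ with Dach1 flox/flox, in which Cre under *Wnt1* regulatory sequence deletes *Dach1*, a transcriptional cofactor, in the neural crest, the source of DRG neurons and glia. The controls were littermates without Cre, given as Dach1 flox/flox like the mutants. The Dach1 flox line was of mixed C57Bl/6J and CD1 background and the Cre line was on C57Bl/6J. Groups follow the sample titles, since the labels' genotype field has the control and mutant entries swapped. *Dach1* was at 37.9 ± 2.40 CPM (SD, n = 5; CPM are counts per 1000000 counts of the tested genes, TMM-scaled) in control and 20.0 ± 0.677 CPM (SD, n = 5) in *WD1* cKO embryos, and reads outside the floxed exon still enter this count. Only the *WD1* cKO embryos carry the Wnt1-Cre transgene. The RefSeq gene table lists Wnt1-Cre and Tg(Wnt1-cre)11Rth among the other names of *H2az2*, since the transgene is recorded as inserted at that gene. No group with Wnt1-Cre and intact *Dach1* was analysed here. For every gene below, the deletion of *Dach1*, the transgene and the chromosome it lies on therefore cannot be told apart from these libraries alone.

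H2A.Z replaces the canonical histone H2A in nucleosomes beside active transcription start sites and at enhancers, and unlike canonical histones it is made outside S phase as well, from polyadenylated transcripts that persist in neurons. Its genes, *H2az1* and *H2az2*, encode nearly identical proteins. The ATPases SRCAP and EP400 exchange H2A-H2B dimers for H2A.Z-H2B dimers, ANP32E takes H2A.Z off chromatin, and INO80 slides nucleosomes and has been linked to H2A.Z removal.

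The promoters of the H2A.Z genes are shown because these genes are the sources of H2A.Z RNA compared below, of which *H2az2* was lower in *WD1* cKO embryos and *H2az1* did not pass the test. Each sequence is the 250 bases before the RefSeq start in GRCm38.p6, read 5′ to 3′ on the strand of the gene, at chr3:137864237-137864486 on the plus strand for *H2az1* and chr11:6444444-6444693 on the minus strand for *H2az2*. Capitals mark CCAAT or, on the other strand, ATTGG, the CCAAT box, and TTTGAA or, on the other strand, TTCAAA, a core found in promoters of cell cycle genes.
H2az1: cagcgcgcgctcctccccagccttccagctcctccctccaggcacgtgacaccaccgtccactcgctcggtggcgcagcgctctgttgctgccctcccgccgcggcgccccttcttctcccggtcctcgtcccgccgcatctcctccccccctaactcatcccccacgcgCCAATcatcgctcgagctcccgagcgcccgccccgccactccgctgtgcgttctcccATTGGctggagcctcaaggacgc
H2az2: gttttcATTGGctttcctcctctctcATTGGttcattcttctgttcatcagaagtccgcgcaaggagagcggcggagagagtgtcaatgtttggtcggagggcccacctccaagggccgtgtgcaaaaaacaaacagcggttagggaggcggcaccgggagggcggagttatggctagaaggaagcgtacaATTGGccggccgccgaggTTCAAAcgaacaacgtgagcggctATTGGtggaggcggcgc

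The *H2az1* window held 2 CCAAT matches, 80 bases before the start as read and 23 bases before it in reverse, and 0 TTTGAA matches. The *H2az2* window held 4 CCAAT matches, all in reverse, 244, 224, 59 and 17 bases before the start, and 1 TTTGAA match in reverse at 41 bases. GC content was 71.2% for *H2az1* and 57.2% for *H2az2*. Of 32851 RefSeq windows of 250 bases, 33.9% held CCAAT and 16.0% held TTTGAA on either strand, and no match of either motif overlapped the other in these promoters. *Ino80*, *Anp32e*, *Ruvbl1* and *Ruvbl2* also had CCAAT in their window, *Anp32e* also had TTTGAA, *Srcap*, *Ep400* and *Znhit1* had neither, and *Vps72* had no window in the table. These matches describe letters in a window and were not tied to any difference in level.

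Control libraries held 20465132 to 27528784 counts and *WD1* cKO libraries 19757596 to 34796562. DRG identity was checked on marker genes: 6 of 6 sensory neuron markers summed to between 6682 and 7598 CPM in control and between 7016 and 7821 CPM in *WD1* cKO libraries, and 6 of 6 Schwann and satellite cell markers to between 790 and 934 and between 787 and 975 CPM. The 5 spinal cord markers were too low to be tested and reached 12.0 CPM in sum in control replicate 3. The lowest control library had 0.110 CPM and *WD1* cKO libraries at most 1.06 CPM. The 4 connective tissue markers summed to 2887 to 4022 CPM in control and 3306 to 3770 CPM in *WD1* cKO libraries. All 4 had estimates above 0 (median 0.13). Of these, 1 had an unadjusted p-value under 0.05 (edgeR), against 2.12% of all genes tested in that direction, and 0 an adjusted one. The 4 muscle markers summed to 16.1 to 117 and 33.8 to 70.9 CPM. Libraries numbered 4 and 5 stood apart in both groups on the first principal component of the 1000 most variable genes (33.9% of variance), with scores from -0.377 to -0.311 against -0.059 to 0.464 for numbers 1 to 3. *Hba-a1*, a haemoglobin gene of blood, was at 28.0 to 32.9 CPM in numbers 4 and 5 and at 73.3 to 544 CPM in the others. In whole ganglia, fewer cells of a type and less RNA per cell cannot be told apart.

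*H2az2* (ENSMUSG00000041126, chromosome 11) was at 25.5, 23.0, 26.4, 21.8 and 25.2 CPM in control replicates 1 to 5 and at 11.8, 12.8, 13.9, 13.0 and 11.3 CPM in *WD1* cKO replicates 1 to 5. Every *WD1* cKO library lay below every control library, as for 0.566% of all genes tested. These levels rest on 521 to 593 counts per control library and 255 to 420 per *WD1* cKO library. The mean was 24.4 ± 1.88 CPM (SD, n = 5) in control and 12.6 ± 1.04 CPM (SD, n = 5) in *WD1* cKO embryos, a ratio of 0.515 and a log2 fold change of -0.96 (standard error 0.072). No other transcript in the annotation searched shared at least 300 bases with *H2az2* at 95% identity or more.

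*H2az1* (ENSMUSG00000037894, chromosome 3) is the paralog of *H2az2*. It was at 6.44, 6.75, 6.78, 6.66 and 8.67 CPM in control replicates 1 to 5 and at 6.19, 7.22, 7.02, 7.98 and 7.76 CPM in *WD1* cKO replicates 1 to 5. The groups overlapped, with the lowest library in *WD1* cKO and the highest in control. Its log2 fold change of 0.035 (standard error 0.099) had a 95% interval from -0.18 to 0.25, or from 11.8% lower to 19.1% higher (Benjamini-Hochberg adjusted p = 1.00, edgeR quasi-likelihood test; exact permutation test, two-sided, p = 0.730). The interval leaves room for a small change in either direction. It lies above the estimate for *H2az2*, as do the intervals of 17005 of 17490 genes tested. The level itself is uncertain. A transcript of *Tmcc1*, another gene, matches *H2az1* at 99.9% identity over 682 of 1069 bases. *Tmcc1* had 1569 to 2728 counts per library, while *H2az1* had 132 to 269. *Gm26623*, a long non-coding RNA gene that was not among the genes counted, matches *H2az1* at 97.5% over 708 bases. Processed copies match *H2az1* over shorter stretches. The submitters' notes and methods do not say how reads with several matches were counted. The annotated pseudogene copies held 0 to 3 counts per library.

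Of the H2A.Z pair, *H2az2* made up 77.5 ± 2.24% (SD, n = 5) of the counts in control and 63.4 ± 2.90% (SD, n = 5) in *WD1* cKO embryos. The share was 74.4% to 79.8% in control libraries and 59.2% to 66.5% in *WD1* cKO libraries, without overlap. Per kilobase of exon model the shares were 79.0 ± 2.14% and 65.3 ± 2.84% (SD, n = 5 each). The summed level was 31.4 ± 2.26 CPM (SD, n = 5) in control and 19.8 ± 1.29 CPM (SD, n = 5) in *WD1* cKO embryos, a ratio of 0.630. As counted, *H2az2* was still the more abundant of these transcripts in every *WD1* cKO library. The summed level was lower in *WD1* cKO embryos along with *H2az2*. These values contain *H2az2* and are given without a test. They depend on how reads that *H2az1* shares with *Tmcc1* and the other copies were treated, so the order by level is uncertain.

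**Figure D1:**
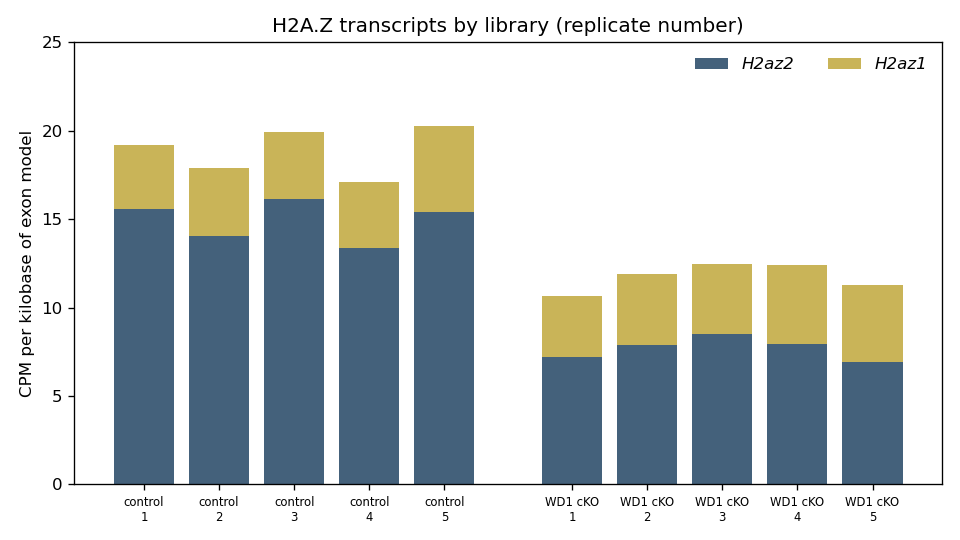
Stacked bars give the level of *H2az2* (dark) and *H2az1* (light) in each of the 10 libraries, in CPM per kilobase of exon model on the vertical axis, with replicate numbers on the horizontal axis. The *H2az2* part stands at 13.4 to 16.1 in control and 6.91 to 8.52 in *WD1* cKO libraries, and the *H2az1* part at 3.63 to 4.88 in control and 3.49 to 4.49 in *WD1* cKO libraries.

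Over all genes tested, 7 (0.04%) were under 0.05 by Benjamini-Hochberg adjusted p and 787 (4.5%) by unadjusted p in the edgeR quasi-likelihood test. Of the 9 members other than *H2az2*, 0 had an adjusted and 0 an unadjusted p-value under 0.05, and DESeq2's Wald test also gave 0 at either level. Their log2 fold changes ran from -0.093 to 0.12 with a median of -0.028, 6 below and 3 above 0, and the median absolute value was 0.039 against 0.053 over all genes tested. The 95% intervals of all 9 lay above -1, as they did for 97.7% of all genes tested. Of these 9 genes, 0 had groups without overlap, which 99 genes (0.566%) had with every *WD1* cKO library below and 87 genes (0.497%) with every *WD1* cKO library above the controls.

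**Figure D2:**
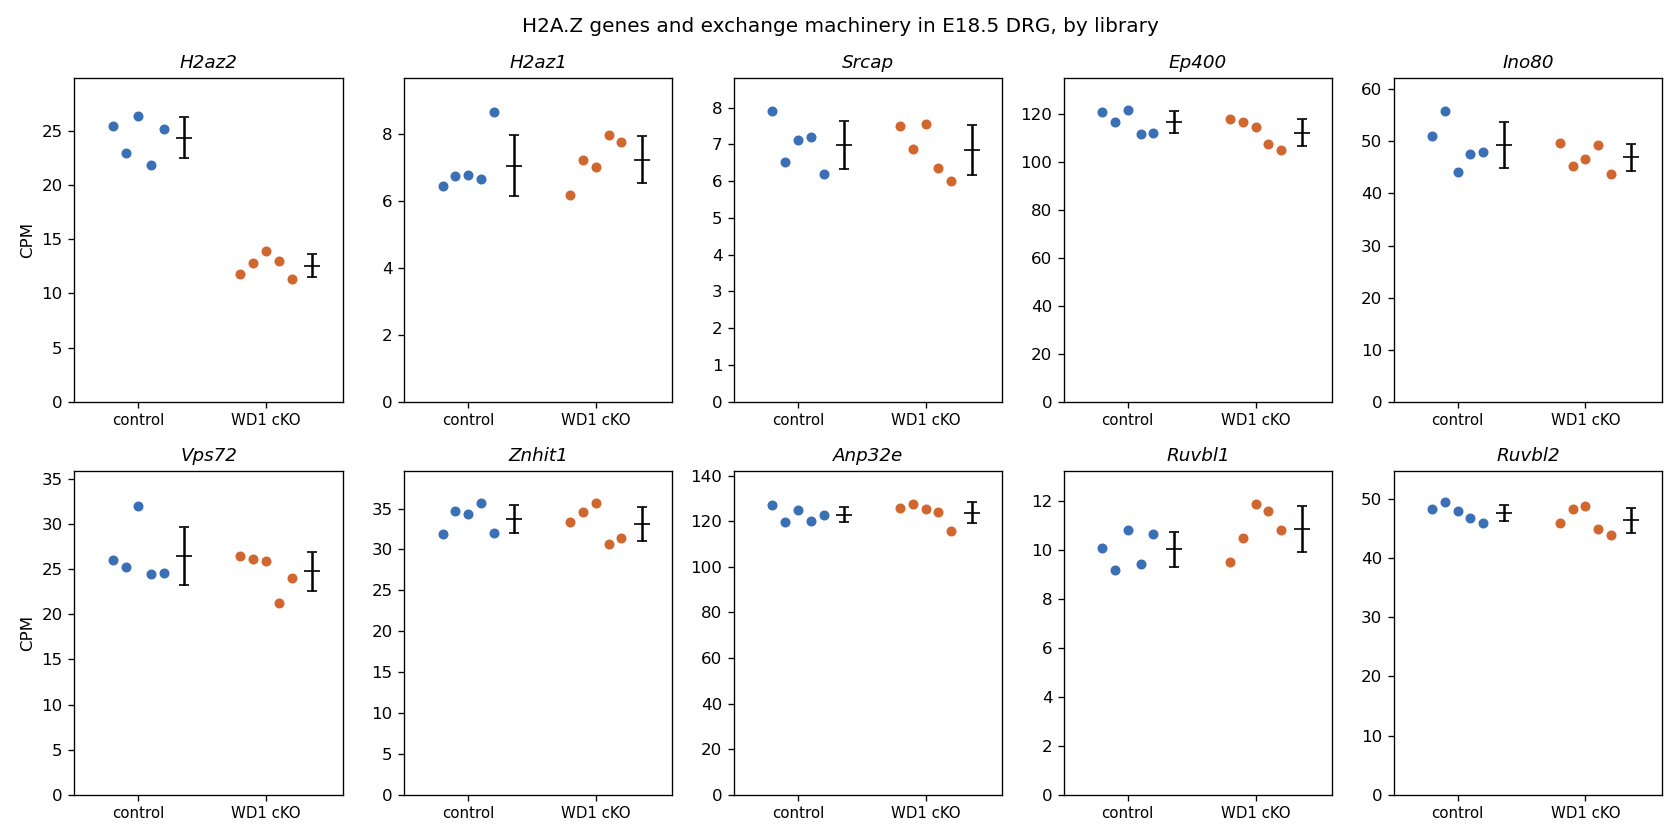
Each panel plots 1 gene, with CPM on the vertical axis starting at 0, 1 point per library in replicate order and a bar for the mean and SD of 5 libraries. The groups are apart for *H2az2* (21.8 to 26.4 against 11.3 to 13.9 CPM) and overlap for the other 9 genes.

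**Figure D3:**
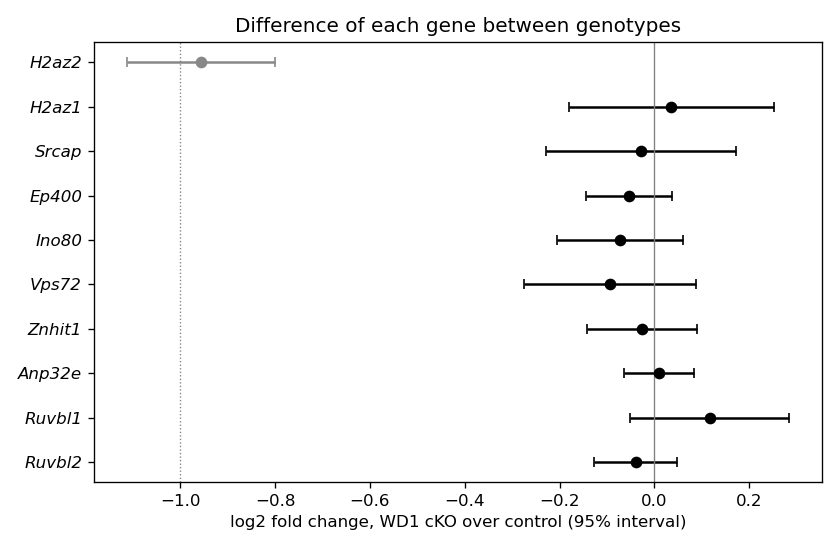
Points give the log2 fold change of *WD1* cKO over control and lines its 95% interval, with a dotted line at -1 and *H2az2* in grey as the gene that picked the set. The 9 intervals below it reach from -0.27 (*Vps72*) to 0.28 (*Ruvbl1*) and each includes 0.

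SRCAP and EP400 are the ATPases that drive exchange, and INO80 is the remodelling ATPase linked to H2A.Z removal. *Srcap* (ENSMUSG00000053877, chromosome 7), the catalytic subunit of the SRCAP complex, was at 7.90, 6.53, 7.11, 7.21 and 6.20 CPM in control and at 7.50, 6.88, 7.55, 6.35 and 6.0 CPM in *WD1* cKO replicates 1 to 5. The groups overlapped over nearly their whole range. Its log2 fold change was -0.028 (95% interval -0.23 to 0.17, adjusted p = 1.00 from the same edgeR test; exact permutation test, two-sided, p = 0.754). *Gm42715*, an annotated gene on the same strand at this locus, shares 6341 of 10654 bases with *Srcap* and had 49 to 93 counts, while *Srcap* had 125 to 228, so part of its reads may not have been assigned and its level is uncertain.

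*Ep400* (ENSMUSG00000029505, chromosome 5), the ATPase of the EP400-TIP60 complex, was at 121, 117, 122, 112 and 112 CPM in control and at 118, 117, 115, 108 and 105 CPM in *WD1* cKO replicates 1 to 5. Its log2 fold change was -0.054 (95% interval -0.14 to 0.036, adjusted p = 1.00 from the same edgeR test; exact permutation test, two-sided, p = 0.238), which bounds a decrease at 9.5%. The groups overlapped between 112 and 118 CPM, and within both of them the libraries numbered 4 and 5 were the lowest, at 112 CPM in control and 105 to 108 CPM in *WD1* cKO embryos. With these numbers as a term in the model, a choice made after the values were seen, the log2 fold change was -0.055. The unadjusted p was 0.0430 (adjusted p = 0.669, edgeR quasi-likelihood test). Libraries numbered 4 and 5 were also the lowest in both groups for *Vps72* and *Ruvbl2*.

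*Ino80* (ENSMUSG00000034154, chromosome 2), the ATPase of the INO80 complex, was at 51.0, 55.8, 44.2, 47.6 and 48.0 CPM in control and at 49.7, 45.3, 46.6, 49.3 and 43.8 CPM in *WD1* cKO replicates 1 to 5. The highest library was a control and the lowest a *WD1* cKO, with the other 8 mixed between the groups. The log2 fold change was -0.073 (95% interval -0.21 to 0.060, adjusted p = 1.00 from the same edgeR test; exact permutation test, two-sided, p = 0.341). It was -0.025 without control replicate 2, the highest library, and -0.11 without control replicate 3.

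*Vps72* (ENSMUSG00000008958, chromosome 3), also known as YL1, binds H2A.Z in both the SRCAP and the EP400-TIP60 complex. It was at 26.0, 25.3, 32.1, 24.4 and 24.6 CPM in control and at 26.5, 26.1, 26.0, 21.3 and 24.0 CPM in *WD1* cKO replicates 1 to 5. Control replicate 3 stood above all other libraries, and it was also the library with the highest spinal cord markers, whose part in this value was not tested. The log2 fold change of *Vps72* was -0.093 (95% interval -0.27 to 0.087, adjusted p = 1.00 from the same edgeR test; exact permutation test, two-sided, p = 0.444), the lowest estimate among the 9 genes, and without control replicate 3 it was -0.016.

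*Znhit1* (ENSMUSG00000059518, chromosome 5), a zinc finger subunit of the SRCAP complex, was at 31.9, 34.8, 34.4, 35.7 and 32.0 CPM in control and at 33.4, 34.6, 35.7, 30.6 and 31.4 CPM in *WD1* cKO replicates 1 to 5. The groups overlapped from 31.9 to 35.7 CPM. Its log2 fold change was -0.026 (95% interval -0.14 to 0.090, adjusted p = 1.00 from the same edgeR test; exact permutation test, two-sided, p = 0.587). *Znhit1* overlaps *Plod3*, a collagen-modifying enzyme gene on the opposite strand, which had 1347 to 2402 counts, and the strand setting of the counting is not given in the sources used here.

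*Anp32e* (ENSMUSG00000015749, chromosome 3), the chaperone that removes H2A.Z, had the narrowest interval of the set. It was at 127, 119, 125, 120 and 123 CPM in control and at 126, 127, 126, 124 and 116 CPM in *WD1* cKO replicates 1 to 5. The highest and the lowest library were both *WD1* cKO. Its log2 fold change of 0.0097 (standard error 0.034) had a 95% interval from -0.063 to 0.083, or from 4.3% lower to 5.9% higher (adjusted p = 1.00 by the same edgeR test; exact permutation test, two-sided, p = 0.794).

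*Ruvbl1* and *Ruvbl2* encode the AAA+ ATPases that form a ring in all of these complexes. *Ruvbl1* (ENSMUSG00000030079, chromosome 6) was at 10.1, 9.17, 10.8, 9.42 and 10.7 CPM in control and at 9.52, 10.5, 11.9, 11.6 and 10.8 CPM in *WD1* cKO replicates 1 to 5, with a log2 fold change of 0.12 (95% interval -0.051 to 0.28, adjusted p = 1.00 from the same edgeR test; exact permutation test, two-sided, p = 0.167). *Ruvbl2* (ENSMUSG00000003868, chromosome 7) was at 48.3, 49.4, 47.9, 46.9 and 45.9 CPM in control and at 46.0, 48.3, 48.9, 44.9 and 43.9 CPM in *WD1* cKO replicates 1 to 5, with a log2 fold change of -0.039 (95% interval -0.13 to 0.049, adjusted p = 1.00 from the same edgeR test; exact permutation test, two-sided, p = 0.278). The estimates of these partners had opposite signs, neither past the test, and the groups overlapped for both. *Gm5837*, a processed copy of *Ruvbl1*, had 0 to 5 counts, and *Gys1*, on the opposite strand at *Ruvbl2*, had 916 to 1713.

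Per kilobase of exon model, the order of mean levels in control embryos was *Anp32e* (34.4 CPM per kilobase), *Znhit1* (18.1), *Ruvbl2* (16.4), *H2az2* (14.9), *Ep400* (8.35), *Vps72* (7.28), *Ino80* (7.25), *Ruvbl1* (5.28), *H2az1* (3.97) and *Srcap* (0.443). The ranges of the 5 control libraries overlapped between *Ruvbl2* and *H2az2*, *Ep400* and *Vps72*, *Vps72* and *Ino80*, and *Ruvbl1* and *H2az1*, and did not between the other neighbours in this order. In *WD1* cKO embryos *H2az2* was at 7.69 CPM per kilobase (range 6.91 to 8.52), where it overlapped *Ep400* at 8.05 (range 7.51 to 8.44), *Ino80* (range 6.44 to 7.30) and *Vps72* (range 5.85 to 7.27). The H2A.Z chaperone *Anp32e* stood above *H2az2* in both groups, and *Srcap*, with the doubt on its counting given above, stood lowest. The place of *H2az1* in this order is uncertain too, since reads shared with *Tmcc1* may not have been assigned to *H2az1*.

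The genes of the complexes, members included, had small estimates. The 3 complexes together held 34 genes, of which 26 are not among the 10 members, and 0 of 34 had an unadjusted p-value under 0.05 in the edgeR fit, against 4.5% over all genes tested. Their median log2 fold change was -0.020, with 21 genes below and 13 above 0, against a median of 0.00022 over all genes tested. All 34 intervals lay above -1, as did those of 97.7% of all genes tested, and the lowest bound was -0.31 for *Ino80b*. The 9 genes of the SRCAP complex had a median of -0.026, the 19 of the EP400-TIP60 complex -0.017 and the 15 of the INO80 complex -0.037, with some genes in more than 1 complex.

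*Mcrs1*, an INO80 subunit, had the lowest estimate of the 34, at 25.7 ± 1.49 CPM in control and 23.6 ± 1.58 CPM in *WD1* cKO embryos (SD, n = 5), a log2 fold change of -0.12 (95% interval -0.25 to 0.0012, unadjusted p = 0.0520, edgeR quasi-likelihood test). *Kat5*, the acetyltransferase TIP60, was at 43.7 ± 0.993 and 41.7 ± 1.75 CPM (SD, n = 5), a log2 fold change of -0.067 (95% interval -0.15 to 0.018). *Meaf6*, another subunit of the EP400-TIP60 complex, had a log2 fold change of -0.082 (95% interval -0.17 to 0.0063). *Mcrs1*, *Kat5* and *Meaf6* were picked from the lists after their values were seen. *Mcrs1* had an unadjusted p-value under 0.05 in 4 and *Meaf6* in 4 of 16 alternative fits, and neither had an adjusted p-value under 0.05 in any of them.

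Of 8 chaperones of H2A-H2B dimers, *Anp32e* and *Vps72* included, 0 had an unadjusted p-value under 0.05, with a median log2 fold change of 0.0018 and a range from -0.093 to 0.058. *Brd2*, *Pwwp2a* and *Pwwp2b*, whose products bind H2A.Z nucleosomes, had log2 fold changes of -0.010, -0.024 and 0.13 in this order, none past the test. Without *WD1* cKO replicate 3, *Pwwp2b* was at 0.16 (unadjusted p = 0.0395, edgeR). Of 16 alternative fits, this was the only 1 with an unadjusted p-value under 0.05 for *Pwwp2b*. With 1 library left out at a time, its log2 fold change ran from 0.084 to 0.16.

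**Figure D4:**
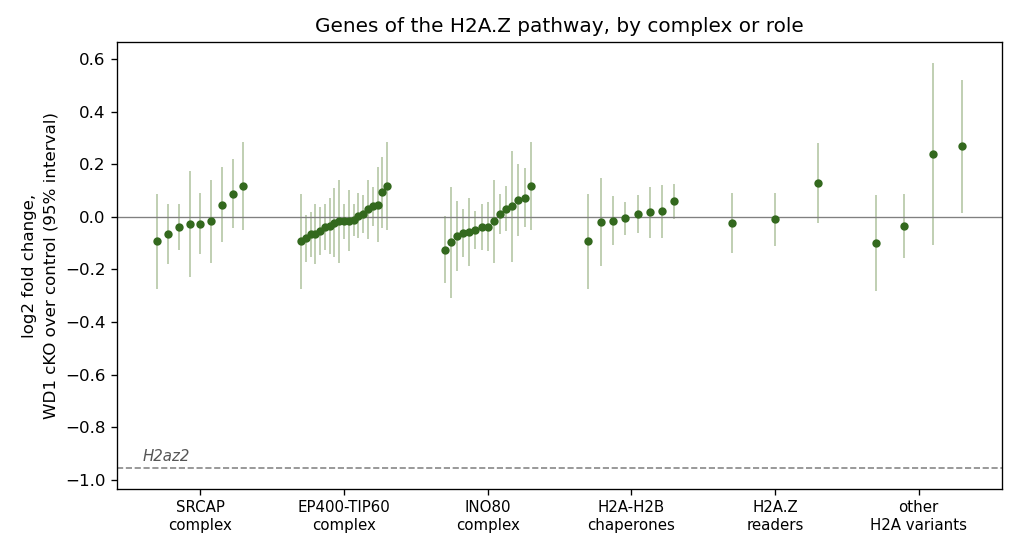
Each point is a gene and each line its 95% interval of the log2 fold change (*WD1* cKO over control, vertical axis), grouped by complex or role, with a dashed line at the value of *H2az2* (-0.96). Genes in more than 1 complex are drawn in each, the 34 genes of the complexes lie between -0.12 and 0.12, and *H2ax* is the one with an interval above 0.

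Among 4 genes for other H2A variants, 1 was higher in *WD1* cKO embryos at an unadjusted p-value under 0.05, against 2.12% of all genes tested in that direction. *H2ax*, whose product is phosphorylated beside DNA breaks, was at 17.3 ± 2.08 CPM (SD, n = 5, range 14.5 to 19.95) in control and at 20.7 ± 3.48 CPM (SD, n = 5, range 16.1 to 24.9) in *WD1* cKO embryos, with overlap. Its log2 fold change was 0.27 (standard error 0.12, 95% interval 0.015 to 0.52), at an unadjusted p of 0.0397 and a Benjamini-Hochberg adjusted p of 1.00 in the edgeR quasi-likelihood test. Leaving out single libraries moved the estimate between 0.19 and 0.34, and the unadjusted p-value stayed under 0.05 in 5 of 10 such fits and reached 0.115 without *WD1* cKO replicate 2. All 8 proliferation markers had estimates above 0 (median 0.13, 0 of 8 with an unadjusted p-value under 0.05), and their summed level was 245 to 304 CPM in control and 262 to 333 CPM in *WD1* cKO libraries. Their part in the *H2ax* value was not tested. *H2aj*, *Macroh2a1* and *Macroh2a2* did not pass an unadjusted p of 0.05. The log2 fold change of *H2aj* was 0.24 and moved as single libraries were left out. It was 0.41 without control replicate 1 (unadjusted p = 0.00552, edgeR) and 0.16 without control replicate 4. An unadjusted p-value under 0.05 was reached in 1 of 16 alternative fits. *Macroh2a1* was at a log2 fold change of -0.036. *Macroh2a2* was at -0.10, and at -0.11 with the replicate number as a block (unadjusted p = 0.0368, edgeR) or with numbers 4 and 5 as a term (unadjusted p = 0.0277, edgeR).

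The genes around *H2az2* on chromosome 11 were compared because the transgene is recorded there. *Ppia*, the nearest tested gene on the side of lower coordinates in the annotation given, encodes cyclophilin A and was at 48.8 ± 1.67 and 48.9 ± 1.06 CPM (SD, n = 5) in control and *WD1* cKO embryos, a log2 fold change of 0.0043 (95% interval -0.073 to 0.081). *Purb*, a single-stranded nucleic acid binding protein gene and the nearest on the other side, was at 171 ± 9.68 and 166 ± 6.40 CPM (SD, n = 5), a log2 fold change of -0.042 (95% interval -0.14 to 0.050). Neither passed the test. Both intervals lay above the estimate for *H2az2*, as did those of 17005 of 17490 genes tested.

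Of the 10 nearest tested genes on each side, 3 of 20 (15.0%) had an unadjusted p-value under 0.05, all lower in *WD1* cKO embryos, against 2.38% of all genes tested in that direction, and 0 had an adjusted p-value under 0.05. *Zmiz2*, a transcriptional coregulator gene, was at 160 ± 15.2 and 146 ± 5.41 CPM (SD, n = 5), a log2 fold change of -0.14 (unadjusted p = 0.0320, edgeR). *Tbrg4*, which encodes a mitochondrial RNA binding protein, was at 44.8 ± 2.22 and 41.7 ± 2.05 CPM (SD, n = 5), a log2 fold change of -0.10 (unadjusted p = 0.0480, edgeR). *Myo1g*, a myosin gene of blood cells, was at 1.45 ± 0.563 and 0.891 ± 0.291 CPM (SD, n = 5), a log2 fold change of -0.68 (unadjusted p = 0.0392, edgeR), from 14 to 43 counts per library. For all 3 the groups overlapped, and the count was 0 without control replicate 3 or without *WD1* cKO replicate 1. The 5 blood markers had a median log2 fold change of -0.94, with 4 of 5 below 0 and 0 of 5 past an unadjusted p-value of 0.05, and summed levels of 61.8 to 1064 CPM in control and 68.1 to 400 CPM in *WD1* cKO libraries. Their part in the *Myo1g* value was not tested. The median over the 20 neighbours was -0.015, with 11 below and 9 above 0.

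**Figure D5:**
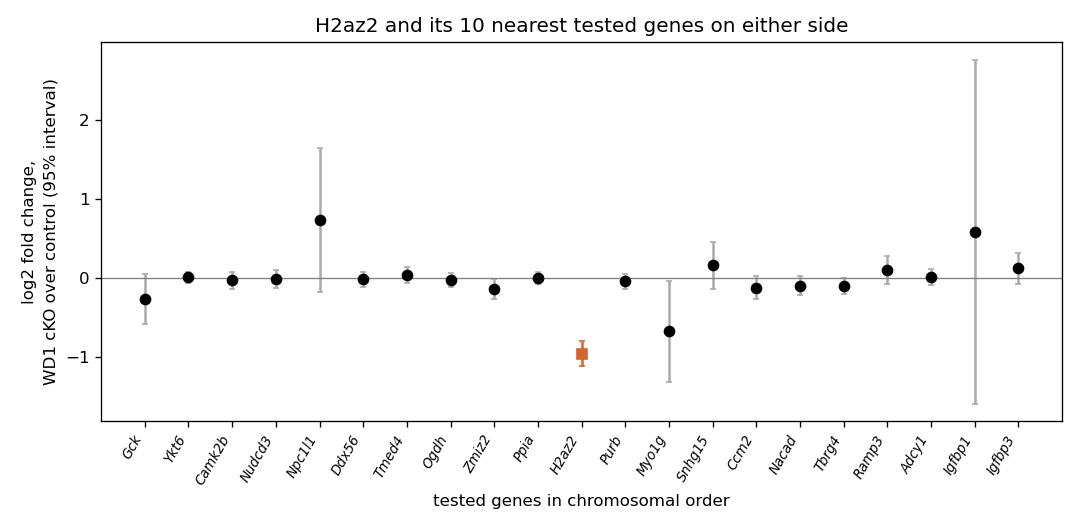
Points give the log2 fold change (*WD1* cKO over control, vertical axis) with its 95% interval for *H2az2* (square, -0.96) and the 10 tested genes on each side in chromosomal order. *Ppia* and *Purb* beside it are at 0.0043 and -0.042.

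The genes whose log2 CPM was most like that of *H2az2* over the 10 libraries were *Dach1* (Pearson's r = 0.971) and *Calb2*, which encodes calretinin (r = 0.954). The libraries fall into 2 groups for both genes, so these values largely describe the difference between genotypes and are given without a test. The log2 fold change was -0.92 for *Dach1* and -2.06 for *Calb2*.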

How the data were processed

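Per the labels and the methods, the authors made stranded mRNA libraries, demultiplexed them with bcl2fastq 2.20.0.422, mapped reads to GRCm39 by STAR 2.7.8a and assigned them to genes by featureCounts 2.0.1. The deposited values are raw counts for each Ensembl gene. Strand setting, treatment of reads with several matches and litters were not given in the sources used here, so genes with copies or overlaps are uncertain, and p-values measure the spread between these samples only. Libraries of a group differed from each other beyond counting noise (chi-square over its degrees of freedom 4.33 to 15.7) and each counted as 1 replicate.

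Symbols were found for 52133 of 55414 identifiers in GENCODE M21 (GRCm38) and RefSeq tables, which also gave chromosome, order and exon length. RefSeq gave the promoters. Copies were sought by blastn in GENCODE transcripts at 95% identity or more over at least 300 bases.

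The tests ran in edgeR 4.0.16 (R 4.3.3) with TMM scaling and the quasi-likelihood model without covariates. A gene entered with 10 or more counts in 5 or more libraries. Benjamini-Hochberg adjustment covered 17490 genes, and 95% intervals came from the same fit. Exact permutation tests enumerated the 252 splits of 5 against 5 on mean log2 CPM (prior count 1), and the smallest two-sided p they allow is 0.00794. The script was tested on simulated counts.

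The members and gene lists were chosen with earlier results of these data known. The genes named were the 10 members, pathway genes and neighbours of *H2az2* at an unadjusted p under 0.05, the nearest neighbours, *Dach1*, copies of *H2az1* and *H2az2*, and the genes most like *H2az2*, of which some are not reported here. Others are given as list members or as picked later. The settings varied were the size factors (those of DESeq2), the filter, robust dispersions, the test (DESeq2 1.42.0) and a block for the replicate number. Single libraries were also left out, and gene length was used for the share. Chosen after seeing the data were numbers 4 and 5 as a term and the pseudogene copies added to *H2az1*.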

Additional observations from a re-analysis of the deposited data

Results flagged for a closer look

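Within each group of 5 libraries, the 10 genes were searched for a single library far from the rest, by the size of its gap relative to the spread of the group. Of 20 gene and group pairs, 2 held such a library, where chance gives about 1. For *H2az1* it was control replicate 5 at 8.67 CPM, with the other control libraries between 6.44 and 6.78 CPM. The log2 fold change of *H2az1* without it was 0.12, still without a call. For *Vps72* it was control replicate 3 at 32.1 CPM, with the other control libraries between 24.4 and 26.0 CPM. The log2 fold change of *Vps72* without it was -0.016. The cause of either value was not tested.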

How the results depend on the processing

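Across the edgeR quasi-likelihood test and 16 alternatives, 0 of the 9 members other than *H2az2* passed an adjusted p of 0.05, and 6 kept their sign. The sign turned for *Srcap* (0.019 without control replicate 1, 0.017 without *WD1* cKO replicate 5), *Znhit1* (3.63e-05 without *WD1* cKO replicate 4) and *Anp32e* (-9.37e-05 without control replicate 2, -0.0011 without *WD1* cKO replicate 2), whose log2 fold changes are near 0, and for the neighbour *Ppia* (-0.0043 and -0.0077 without control replicates 1 and 5, -0.0089 without *WD1* cKO replicate 5). With 1 library left out at a time, log2 fold changes ran from -0.999 to -0.92 for *H2az2*, -0.068 to 0.019 for *Srcap*, -0.055 to 3.63e-05 for *Znhit1*, -0.0011 to 0.031 for *Anp32e*, -0.0089 to 0.024 for *Ppia*, 0.00068 to 0.12 for *H2az1*, -0.072 to -0.033 for *Ep400*, -0.11 to -0.025 for *Ino80*, -0.12 to -0.016 for *Vps72*, 0.080 to 0.16 for *Ruvbl1* and -0.060 to -0.022 for *Ruvbl2*. The difference in the share of *H2az2* among H2A.Z counts ran from -14.9 to -13.1 percentage points with 1 library left out. It was -13.6 per kilobase and -14.2 with the annotated pseudogene copies added to *H2az1*. Those copies held 0 to 3 counts per library and *Tmcc1* was not added. This setting therefore could not show the effect of reads shared with *Tmcc1*.

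At an unadjusted p-value under 0.05, the count of members was 1 (*Ep400*) with numbers 4 and 5 as a term. The count of the 34 complex genes, 0 in the edgeR fit, was 1 with DESeq2's size factors, 1 with robust dispersions, 2 with numbers 4 and 5 as a term and 0 to 2 with 1 library left out (2 without control replicate 5, 1 without *WD1* cKO replicate 1 or 5). These were *Mcrs1*, *Meaf6* and *Ep400*. The count of neighbours of *H2az2*, 3 in the edgeR fit, ran from 0 to 4 with 1 library left out: it was 0 without control replicate 3 or *WD1* cKO replicate 1, 1 without control replicate 4 or *WD1* cKO replicates 3, 4 or 5, and 4 without control replicate 2. The cause was not tested.

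The labels number replicates 1 to 5 in both groups. The correlation of same-numbered deviations was 0.0404 for number 2 and 0.320 to 0.390 for the others, and 7 of 10 libraries were closest to their own number. Since 1 of the 5 pairs lay under 0.1 and the labels tie the numbers to no litter or batch, they were not taken as pairs, although the other 4 pairs deviated together. With the replicate number as a block, the counts were 0 members, 1 complex gene (*Meaf6*), 4 neighbours and 2 other H2A variants (*H2ax*, and *Macroh2a2*, which was not among them without the block) at an unadjusted p-value under 0.05, and over all genes 1241 against 787.

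*H2az1* and *Srcap*, with 125 to 269 counts per library, had the widest intervals of the set.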
